A study of Mus musculus with 22 samples.

Results

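The hypothalamus of lean male mice was compared after 4 days of intraperitoneal celastrol and after 4 days of its vehicle, dimethyl sulfoxide (DMSO). The comparison took the 3 arrays titled for celastrol at 4 days and the 4 arrays titled for DMSO at 4 days, which makes 7 of the 22 arrays of the series. It covered all 20228 of the 23492 probe sets whose annotation gives exactly 1 gene symbol, dim ones included, and these stand for 18704 genes. Every group was of C57BL/6J mice, 8-week-old males kept on normal chow for 2 weeks, with no transgene or diet challenge. DMSO was given at 25 µl per day, and other celastrol and DMSO groups were taken at 6 h and at 1 day (4 arrays in each group, but 3 for celastrol at 1 day). The labels name a celastrol dose of 250 µg per kg for 6 h but for the later times they name 100 µl and no dose, so a 4-day dose cannot be stated. Arrays of a group are labelled biological replicates, which is taken to mean separate mice, though no animal is identified.

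Celastrol is a plant triterpenoid best known for lowering food intake and body weight in obese mice, an action linked to leptin. The hypothalamus holds the neurons that sense leptin and control feeding and pituitary hormones, and beside them astrocytes, oligodendrocytes, blood vessels and microglia. Microglia are the resident macrophages of the brain. They express complement C1q, the integrin chain CD11b, Fc receptors and lysosomal proteases, and they react to cytokines and to signals from the periphery. Endothelial and perivascular cells can pass such signals on through prostaglandins, which need the inducible cyclooxygenase Ptgs2.

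The promoters of 4 genes on which the results turn are shown first. Ch25h and Wfdc17 are the genes that passed the test, and Itgam and Ctss stand for the microglial and lysosomal genes described after them. Each sequence is the 300 bases from 250 before to 50 after the RefSeq start of transcription, on the strand of the gene, in mouse build GRCm38.p6. Capitals mark the PU.1 core GAGGAA (read on either strand, so also as its reverse complement) and, in Ch25h, the cAMP response element TGACGTCA. PU.1 is the transcription factor that specifies macrophages and microglia. Windows of genes on the minus strand are written reversed and complemented.
Ch25h, chr19:34475099-34475398, minus strand: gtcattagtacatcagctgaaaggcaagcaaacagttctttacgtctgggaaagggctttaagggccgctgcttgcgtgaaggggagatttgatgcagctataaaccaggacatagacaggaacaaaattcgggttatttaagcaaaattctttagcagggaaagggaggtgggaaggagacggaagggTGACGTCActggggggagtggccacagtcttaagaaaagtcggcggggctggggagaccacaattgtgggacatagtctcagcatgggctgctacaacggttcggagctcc
Wfdc17, chr11:83703806-83704105, plus strand: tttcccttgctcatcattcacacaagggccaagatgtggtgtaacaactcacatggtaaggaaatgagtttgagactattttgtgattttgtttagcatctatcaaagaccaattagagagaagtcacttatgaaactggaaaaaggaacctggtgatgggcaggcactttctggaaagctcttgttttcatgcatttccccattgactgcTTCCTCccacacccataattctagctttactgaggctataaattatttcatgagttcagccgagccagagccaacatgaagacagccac
Itgam, chr7:128062390-128062689, plus strand: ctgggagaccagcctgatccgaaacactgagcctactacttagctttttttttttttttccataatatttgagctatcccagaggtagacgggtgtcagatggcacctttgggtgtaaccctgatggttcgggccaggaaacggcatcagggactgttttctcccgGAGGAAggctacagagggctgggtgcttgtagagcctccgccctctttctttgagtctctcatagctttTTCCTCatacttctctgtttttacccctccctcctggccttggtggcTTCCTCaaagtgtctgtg
Ctss, chr3:95526536-95526835, plus strand: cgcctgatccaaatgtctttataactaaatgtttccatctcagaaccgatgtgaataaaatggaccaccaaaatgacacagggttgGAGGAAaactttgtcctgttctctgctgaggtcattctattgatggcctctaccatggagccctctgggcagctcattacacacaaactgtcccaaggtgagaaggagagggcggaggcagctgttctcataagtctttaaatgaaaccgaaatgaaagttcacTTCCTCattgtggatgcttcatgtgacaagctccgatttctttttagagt
The cAMP response element of Ch25h began at base -61 from the start of transcription, and 1.88% of all 27025 RefSeq promoters of this length hold those letters. The PU.1 core began at -39 in Wfdc17, at -84, -15 and 33 in Itgam, and at -164 and 1 in Ctss. It was in 12 of the 19 microglia-list promoters that RefSeq holds (63.2%), and in 28.3% of all promoters. The share was also raised in the complement list (5 of 9, 55.6%), which shares genes with the microglia list, and in the endothelium list (7 of 16, 43.8%). In the acute phase and glucocorticoid lists it was 24.2% and 23.1%. The NF-kB site was in 13 of 33 promoters of the acute phase and NF-kB list (39.4%) against 8.18% of all, and the glucocorticoid response element was in 2 of 26 promoters of the glucocorticoid list (7.69%) against 0.463% of all. Both lists were drawn up around such targets. The shares depend on which genes a list names and do not draw on the arrays. Both strands were searched, and the matches in the windows shown did not overlap each other. A match is a run of letters and not a binding site.

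The arrays were alike in overall signal. Array medians were 8.58 to 8.66 on the log2 scale, and each array correlated with its own group at 0.994 to 0.998 on average. Neuronal, astrocytic and oligodendrocytic marker lists had mean log2 levels above 11 on all 7 arrays and microglial markers about 9, while markers of T, B and NK cells lay below 6.5. Celastrol replicate 2 had a pituitary marker level of 8.98, where the other 6 arrays lay between 7.94 and 8.30. On that array the hormone genes Prl and Gh read 10.33 and 11.16, against 6.29 and 6.54 and 8.26 and 7.92 on the other celastrol arrays.

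Two-sided tests in limma, adjusted by Benjamini-Hochberg over all 20228 probe sets, called 2 probe sets higher (0.00989%) and 0 lower (0%) at an adjusted p under 0.05. At an unadjusted p under 0.05, where about 1011 of either sign arise if nothing differs, 556 were higher (2.75%) and 263 lower (1.30%), so 67.9% of them were higher. This split depends on the scaling. It was 507 higher and 436 lower (53.8% higher) when the arrays were quantile-normalized again, and 371 and 474 (43.9% higher) when each array was centred on its median. Most differences were small: among the 556, the median log2 change was 0.19 and 11 exceeded 0.5. The celastrol arrays stood wholly above the DMSO arrays at 821 probe sets (4.06%) and wholly below at 409 (2.02%), and the change was above 0 for 56.0%. For the lists of genes described below, 1 probe set was used per gene, and the matching background over 18704 genes was 2.74% higher and 1.27% lower at an unadjusted p under 0.05, 4.03% with all celastrol arrays above and 2.02% with all below, and 56.1% with a change above 0. Genes with a mean level above the median gave fewer such calls, 1.81% higher and 0.725% lower.

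**Figure D1:**
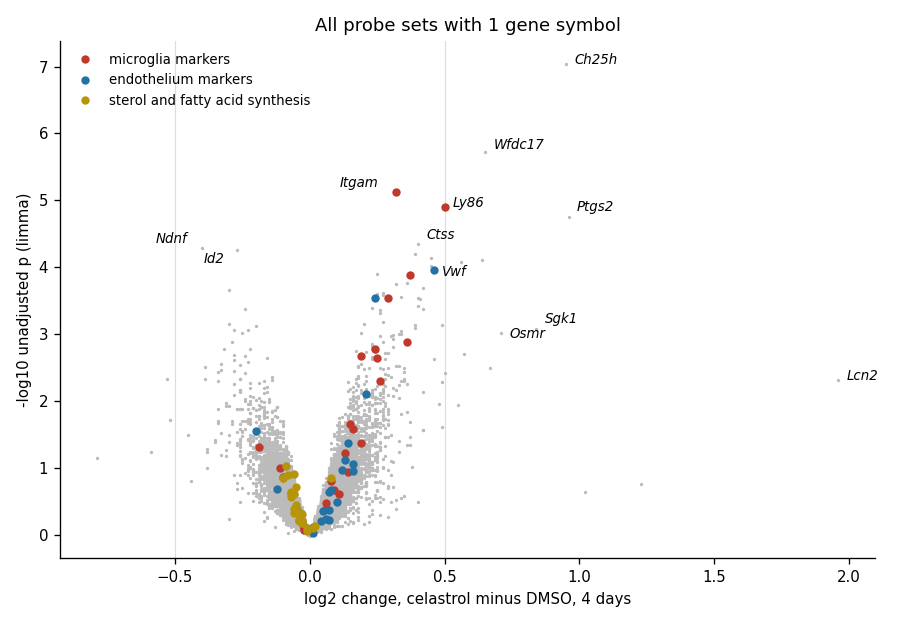
Change after 4 days of celastrol (log2, x axis) against -log10 of the unadjusted limma p (y axis) for all 20228 probe sets with 1 gene symbol; thin vertical lines stand at plus and minus 0.5, and colours mark members of 3 gene lists. Ch25h and Wfdc17 stand above the rest at changes of 0.95 and 0.65, microglia markers (red) lie mostly on the right, and sterol and fatty acid synthesis genes (yellow) lie close to 0.

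Ch25h encodes cholesterol 25-hydroxylase, the enzyme that makes 25-hydroxycholesterol, an oxysterol released by activated macrophages. Its probe set (10467136, chromosome 19) read 7.57, 7.72 and 7.23 on the celastrol arrays and 6.55, 6.55, 6.67 and 6.45 on the DMSO arrays. The lowest celastrol array was above the highest DMSO array by more than the whole range of the DMSO arrays. It rose by 0.95 on the log2 scale, or 1.93-fold (SE 0.12, 95% interval 0.70 to 1.2), with an adjusted p of 0.00186 in limma. Its exact permutation p was 0.0286, the smallest that 3 against 4 arrays can give. Wfdc17 encodes a small secreted protein with a whey acidic protein domain, made by activated microglia and macrophages. Its probe set (10379727, chromosome 11) read 8.11, 8.30 and 7.80 with celastrol and 7.51, 7.51, 7.25 and 7.42 with DMSO, and the groups did not overlap. It rose by 0.65 on the log2 scale, or 1.57-fold (SE 0.10, 95% interval 0.44 to 0.86), with an adjusted p of 0.0191 in limma.

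Both probe sets lay below the median of all values, 8.61, and the Ch25h probe set lay below the lower quartile, 7.07, on all DMSO arrays, so neither was shown to be above background. Folds against such a baseline may understate the difference. The 2 calls also depended on the spread shared with the other 15 arrays. Within the 7 arrays alone the log2 changes were the same and the adjusted p was 0.0934 for Ch25h and 0.303 for Wfdc17. Wfdc17 was also lost without DMSO replicate 3 or 4, or celastrol replicate 1 or 2 (adjusted p 0.0758 to 0.171), and after a second quantile normalization (0.0887), while Ch25h was called with any single array left out.

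**Figure D2:**
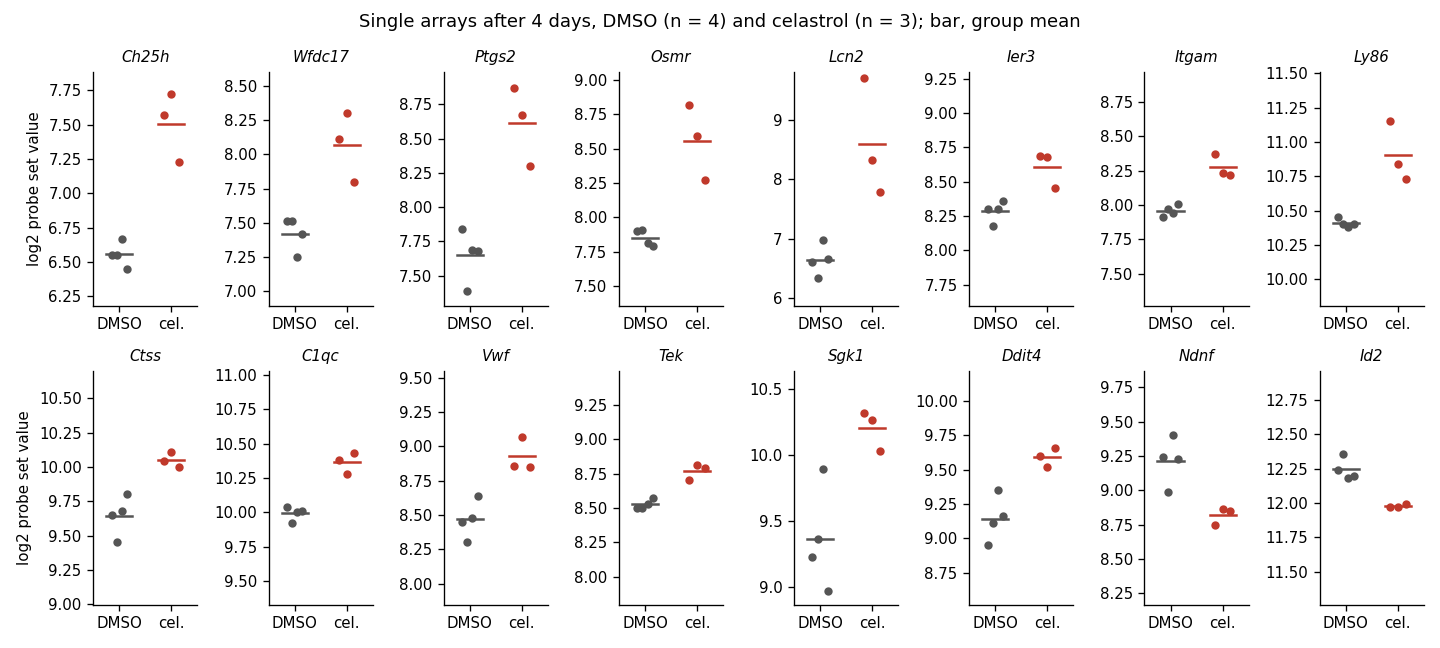
Log2 value of 16 genes on each array after 4 days (y axis, log2 probe set value, with a range of its own in each panel); grey points are the 4 DMSO arrays, red points the 3 celastrol arrays, and bars the group means. The groups do not overlap in any of the 16 panels, but several of these genes met a naming rule that takes only separated probe sets. Of all probe sets, 4.06% separate with celastrol higher and 2.02% with celastrol lower. Ndnf and Id2 are lower with celastrol. The gap is narrow for Sgk1, where DMSO replicate 3 (9.90) lies just under the lowest celastrol array (10.03).

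Among the 37 gene lists examined, the microglia list had the most members higher at an unadjusted p under 0.05, though not the most with a change above 0. Of 25 measured microglia markers, 12 were higher at an unadjusted p under 0.05 and 1 was lower, where 2.74% and 1.27% of all genes were. The groups were fully separated, celastrol higher, for 12 of the 25, where 4.03% of all genes were. None passed after adjustment over all probe sets. The median log2 change of the list was 0.14, against 0.01 over all genes. The mean level of the list was 9.08 to 9.12 on the celastrol arrays and 8.91 to 9.0 on the DMSO arrays. In whole tissue, more cells of a type and more RNA per cell cannot be told apart.

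Itgam encodes CD11b, the alpha chain of complement receptor 3. Itgam read 8.37, 8.23 and 8.22 with celastrol and 7.91, 7.97, 7.94 and 8.01 with DMSO, so that the groups stood clear of each other. Its log2 change was 0.32 (SE 0.05, adjusted p = 0.0512), just short of the threshold, which it passed when 1 probe set per gene was tested (adjusted p = 0.0463). In all, Itgam passed in 3 of the 18 alternative settings in which it was tested. Ly86 encodes MD-1, a secreted partner of the toll-like protein RP105. Ly86 read 11.15, 10.84 and 10.73 with celastrol and 10.45, 10.40, 10.38 and 10.40 with DMSO, and the DMSO arrays were nearly equal. Its log2 change was 0.50 (SE 0.09, adjusted p = 0.0632). C1qc, a chain of C1q, the first component of the classical complement pathway, read 10.38, 10.28 and 10.43 against 10.04, 9.92, 10.00 and 10.01 (log2 change 0.37, SE 0.08, adjusted p = 0.164).

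The other microglia markers varied. Fcrls (log2 change 0.36), the pan-leukocyte phosphatase gene Ptprc (0.29), the secreted Olfml3 (0.26), C1qb (0.25), C1qa (0.24), the growth factor receptor Csf1r (0.19) and the signalling adaptor gene Tyrobp (0.19) were among those with an unadjusted p under 0.05. Other markers, several of them also typical of resting microglia, were not: Tmem119 was at 0.09 (SE 0.07), the fractalkine receptor Cx3cr1 at 0.08 (SE 0.06), the ADP receptor P2ry12 at -0.02 (SE 0.07) and the transcription factor Sall1 at -0.03, with signs for P2ry12 and Sall1 that turned without DMSO replicate 1 (0.01 each). The fructose transporter Slc2a5 was the marker with a lower value at an unadjusted p under 0.05 (-0.19, SE 0.09). Without celastrol replicate 1 its value was -0.12. Members that reached that level were not tested against those that did not.

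**Figure D3:**
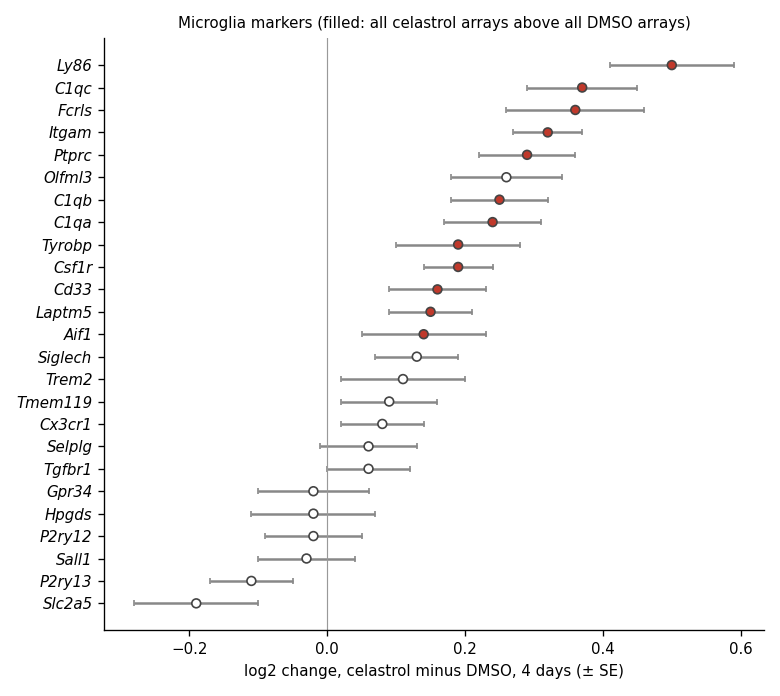
Log2 change after 4 days of celastrol (x axis, with the limma SE as bars) for the 25 measured microglia markers, ordered by change; filled points mark genes with all 3 celastrol arrays above all 4 DMSO arrays. The filled points run from Ly86 (0.50) to Aif1 (0.14), and 6 markers lie below 0, Slc2a5 lowest (-0.19).

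The complement and phagocytosis lists overlap with the microglia list. Of 16 complement genes, 6 were higher at an unadjusted p under 0.05 and 0 lower, and the list had a median of 0.10 (0.19 without DMSO replicate 4). Besides Itgam and the 3 C1q chains these were Itgb2, the beta chain that pairs with CD11b (0.29, SE 0.09), and C4b (0.27, SE 0.09), which has a close paralog that the probes may not tell apart. Of 37 genes of myeloid activation, phagocytosis and lysosome, 8 were higher and 0 lower, and 31 had a change above 0. Ctss encodes cathepsin S, a lysosomal protease of antigen-presenting cells. Ctss read 10.04, 10.11 and 10.00 with celastrol and 9.65, 9.45, 9.68 and 9.80 with DMSO, without overlap (log2 change 0.40, SE 0.08, adjusted p = 0.137). The inhibitory Fc receptor Fcgr2b (0.26, SE 0.07) and the shared Fc receptor chain Fcer1g (0.19) followed. Other lysosomal members of the list were not at that level, among them the membrane protein gene Lamp1 (0.00), the protease gene Ctsd (0.05) and the progranulin gene Grn (0.03). Outside the list, Ctsc, another lysosomal protease gene, was at 0.42 (SE 0.09). The count of 8 fell to 4 without celastrol replicate 2.

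Markers of other immune cells were at low levels. The list of perivascular macrophages, monocytes and neutrophils had a mean level of 6.5 to 6.62 with celastrol and 6.43 to 6.47 with DMSO, and 12 of its 16 members lay below the lower quartile of all values. Of the 16, 2 were higher at an unadjusted p under 0.05, both of perivascular macrophages: Cbr2 (0.27, SE 0.09) and the mannose receptor gene Mrc1 (0.21, SE 0.10). The count was 1 without DMSO replicate 1 and 4 without celastrol replicate 1. Of 13 T, B and NK cell markers, 0 were higher and 0 lower, with a median of -0.01. The part of these cells in the microglial changes was not tested.

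Ptgs2 encodes cyclooxygenase-2, the inducible step of prostaglandin synthesis. Ptgs2 read 8.87, 8.67 and 8.30 with celastrol and 7.84, 7.39, 7.69 and 7.68 with DMSO. Every celastrol array was above every DMSO array. The log2 change was 0.96 (fold 1.95, SE 0.17, 95% interval 0.60 to 1.32, adjusted p = 0.0728). It passed without celastrol replicate 3 (log2 change 1.12, adjusted p = 0.0421), and in all in 4 of 20 alternative settings. Of the 19 genes of prostaglandin synthesis and receptors, 3 were higher and 0 lower at an unadjusted p under 0.05. The others were the prostaglandin transporter Slco2a1 (0.29, SE 0.11) and the phospholipase Pla2g4a (0.24, SE 0.10), which frees arachidonic acid. Slco2a1 was at 0.18 without DMSO replicate 2, and Pla2g4a at 0.14 without celastrol replicate 2. The synthases Ptges (0.04) and Ptgds (0.15) did not reach that level. The count of 3 fell to 1 without DMSO replicate 2.

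The acute phase and NF-kB list had 9 of 40 members higher at an unadjusted p under 0.05 and 0 lower, Ch25h among them. Lcn2, the iron-scavenging acute phase protein lipocalin 2, had a large change and a wide spread. Lcn2 read 9.70, 8.32 and 7.78 with celastrol and 6.61, 6.33, 6.97 and 6.66 with DMSO. The groups did not overlap, but celastrol replicate 1 stood far above the other celastrol arrays. The log2 change was 1.96 (SE 0.62, 95% interval 0.66 to 3.26, adjusted p = 0.806), so it was far from the threshold. Its DMSO arrays all lay below the lower quartile of all values, where background may hold the signal up, so this size may understate the difference. Ier3, an early NF-kB target, had a change of 0.32 (SE 0.07, adjusted p = 0.190), and Nfkbia, which encodes the NF-kB inhibitor IkB-alpha, of 0.40 (SE 0.09, adjusted p = 0.209). Birc3 (0.30), Irak3 (0.23), the adhesion molecule gene Vcam1 (0.20) and Cd14 (0.29), part of the lipopolysaccharide receptor, were also higher on all celastrol arrays. The cytokine genes Il1b (0.06), Tnf (-0.07) and Il6 (-0.11) had overlapping groups and, as Ch25h, mean levels below the lower quartile of all values.

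Osmr, the receptor subunit for oncostatin M in the interleukin-6 family, read 8.82, 8.59 and 8.27 with celastrol and 7.90, 7.91, 7.81 and 7.79 with DMSO, without overlap. Its log2 change was 0.71 (SE 0.18, 95% interval 0.32 to 1.09, adjusted p = 0.396). Of the 26 genes of the interleukin-6 family and JAK-STAT3 pathway, 4 were higher and 1 lower at an unadjusted p under 0.05, with Fosl2, an AP-1 subunit, at 0.26 (SE 0.06). The count of 4 fell to 2 without DMSO replicate 4 and to 2 under each of the other scalings. The feedback inhibitor Socs3 was at 0.03 (SE 0.10), with a sign that turned when the arrays were quantile-normalized again (-0.00), and Stat3 at 0.09 (SE 0.06). Of 27 interferon-stimulated and MHC class I genes, 3 were higher and 0 lower, with Oas1a at 0.40 (SE 0.09).

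**Figure D4:**
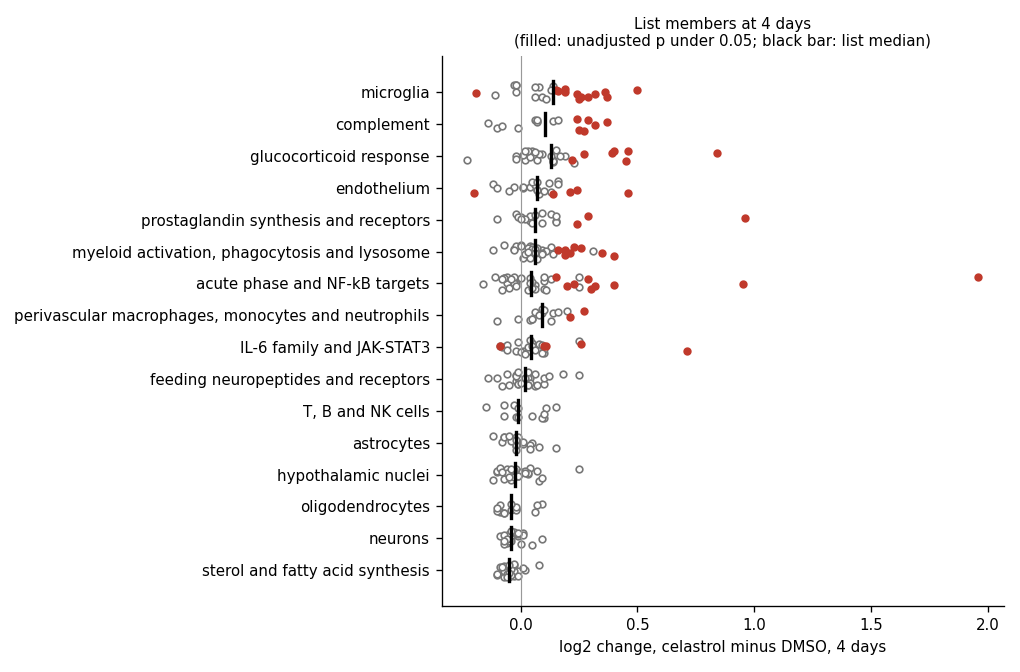
Log2 change after 4 days of celastrol (x axis) for each measured member of 16 gene lists (rows); filled red points have an unadjusted limma p under 0.05 and black bars are list medians. Most filled points lie to the right of 0 in the microglia (12), acute phase (9), myeloid (8), glucocorticoid (7) and complement (6) rows, and the neuron, astrocyte and sterol synthesis rows have none.

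Genes that glucocorticoids induce also had several higher members. Of 29 measured, 7 were higher at an unadjusted p under 0.05 and 0 lower, 26 had a change above 0, and the median was 0.13. Sgk1 encodes a kinase that regulates ion transport. Sgk1 read 10.32, 10.27 and 10.03 with celastrol and 9.23, 9.37, 9.90 and 8.97 with DMSO, with no overlap despite a wide spread in DMSO (log2 change 0.84, SE 0.22, adjusted p = 0.391). Ddit4 encodes REDD1, an inhibitor of mTORC1. Ddit4 read 9.60, 9.52 and 9.66 against 8.95, 9.11, 9.35 and 9.16 (log2 change 0.45, SE 0.09, adjusted p = 0.141). Plekhf1 (0.46, SE 0.13), Arrdc2 (0.39, SE 0.10), Gadd45g (0.27) and Nfkbia stood beside them. The canonical targets Fkbp5 (0.14, SE 0.13; 0.06 without DMSO replicate 2), Per1 (0.07, SE 0.08) and Tsc22d3 (0.06, SE 0.08) did not reach that level, and the sign of Tsc22d3 turned without DMSO replicate 4 (-0.01). The count stayed between 7 and 9 with each array left out, but the median was 0.06 without DMSO replicate 4.

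Vascular genes differed among themselves. Of 23 endothelial markers, 4 were higher and 1 lower at an unadjusted p under 0.05, and the median was 0.07. Vwf, the clotting protein stored by endothelial cells, read 8.86, 9.07 and 8.85 with celastrol and 8.45, 8.30, 8.48 and 8.64 with DMSO, without overlap (log2 change 0.46, SE 0.10, adjusted p = 0.157). Tek, the receptor for angiopoietins, read 8.70, 8.81 and 8.79 against 8.5, 8.5, 8.53 and 8.57 (log2 change 0.24, SE 0.06, adjusted p = 0.209). Itm2a was at 0.21 and the VEGF receptor Flt1 at 0.14, while the secreted endothelial protein Egfl7 was at -0.20 (SE 0.09). The junction genes Cldn5 (-0.12, SE 0.09) and Pecam1 (0.04, SE 0.07) did not reach that level. The count of 4 fell to 2 without celastrol replicate 2. Pericyte, smooth muscle and fibroblast markers had 1 of 22 members higher, and their mean level was highest on the same array (9.29, with 9.0 and 8.96 on the other celastrol arrays and 8.84 to 9.26 on DMSO arrays).

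Some genes with higher values stood in none of these groups. Acer2, an alkaline ceramidase, read 8.97, 8.97 and 8.83 against 8.37, 8.46, 8.39 and 8.24 (log2 change 0.56, SE 0.11, adjusted p = 0.141), but its other probe set (10505788) was at -0.13 (SE 0.09). Igfbp7, a secreted binding protein of vessel walls, was at 0.34 (SE 0.09), and Alox5ap, the activating protein of leukotriene synthesis, at 0.26 (SE 0.06).

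No lower value passed the test. Ndnf, a secreted neurotrophic factor, read 8.75, 8.86 and 8.85 with celastrol and 9.24, 8.99, 9.40 and 9.23 with DMSO, with DMSO replicate 2 nearest to the celastrol arrays. Its log2 change was -0.40 (SE 0.08, adjusted p = 0.137), and without that DMSO array it passed (-0.47, adjusted p = 0.0182). In all, Ndnf passed in 2 of 21 alternative settings. Id2, an inhibitor of helix-loop-helix transcription factors, read 11.97, 11.97 and 11.99 against 12.24, 12.36, 12.18 and 12.20 (log2 change -0.27, SE 0.05, adjusted p = 0.137). Nkx2-2, a homeobox factor of the ventral brain and oligodendrocyte lineage, was at -0.24 (SE 0.06). The DMSO mean of Nkx2-2 was 8.80 at 6 h, 8.81 at 1 day and 8.99 at 4 days, where its celastrol mean was 8.76. For Ndnf the DMSO means were 8.93, 9.06 and 9.21 in that order, and the 4-day celastrol mean was 8.82. For Id2 the DMSO means were 12.22, 12.17 and 12.25, and the 4-day celastrol mean was 11.97. Cryab, a small heat shock protein, was at -0.25 (SE 0.06) and was the one gene of 19 in the heat shock list with an unadjusted p under 0.05. Ube2d2a, a ubiquitin-conjugating enzyme with close relatives, was lower on both of its probe sets (-0.28, SE 0.09, and -0.20, SE 0.07), the latter at -0.12 without celastrol replicate 2.

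Some lists had many members slightly below 0 and none past the threshold. Of 28 genes of sterol and fatty acid synthesis, 25 had a change below 0, with a median of -0.05 and a range of -0.10 to 0.08, and 0 had an unadjusted p under 0.05. The groups were fully separated, celastrol lower, for 5 of them, where 2.02% of all genes were. Neuronal markers had 16 of 20 members below 0 (median -0.04, or -0.02 without DMSO replicate 4) and oligodendrocyte markers 11 of 14 (median -0.04, or -0.01 without celastrol replicate 1). Of these, 4 neuronal and 0 oligodendrocyte markers were fully separated with celastrol lower. Astrocyte markers had 14 of 21 below 0 (median -0.02), with Gfap, the filament of reactive astrocytes, at 0.15 (SE 0.12, unadjusted p = 0.205 in limma). RMA puts all arrays on 1 scale, so small shifts of abundant genes are relative to the other genes. Sterol genes below 0 numbered 25 and 26, and neuronal genes 16 and 18, under the quantile and median scalings.

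Feeding genes gave no call at this time. Of the 29 feeding neuropeptides and receptors measured, of 30 listed (Agrp is not analysed here), 0 were higher and 0 lower at an unadjusted p under 0.05. Npy read 10.68, 10.78 and 11.08 with celastrol and 11.07, 10.61, 10.83 and 10.61 with DMSO (log2 change 0.06, SE 0.16, 95% interval -0.26 to 0.39). Pomc read 8.28, 8.82 and 8.53 against 8.67, 8.33, 8.56 and 8.46 (0.04, SE 0.14, 95% interval -0.26 to 0.34). The groups overlapped for both. Pomc is also in the pituitary list, and celastrol replicate 2 had the highest pituitary marker level. Without that array Pomc was at -0.10, and without DMSO replicate 2 at -0.02. The intervals of Npy and Pomc leave out a change of the size of Ch25h's, but changes within the intervals are not excluded. The leptin receptor gene Lepr read 8.04, 8.28 and 7.99 against 7.90, 7.59, 7.98 and 7.92, which did not overlap (0.25, SE 0.14, unadjusted p = 0.0792 in limma). Among 17 hypophysiotropic and magnocellular peptides and their enzymes, Th, tyrosine hydroxylase of dopamine neurons, was lower at an unadjusted p under 0.05 (-0.35, SE 0.16) and the groups overlapped. Without DMSO replicate 3 its value was -0.21. The DMSO mean of Th was 10.86 at 6 h, 10.98 at 1 day and 11.48 at 4 days, where its celastrol mean was 11.13. Genes of the unfolded protein response (0 of 30), NRF2 targets (0 of 26) and the clock (0 of 21) showed no member at that level, and oxidative phosphorylation had 1 of 44 (Ndufa4, 0.12).

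The 4-day changes were then set against those at 6 h and at 1 day, each of which has DMSO arrays of its own. No difference between 4 days and 6 h passed (0%, lowest adjusted p = 0.573 in limma), nor between 4 days and 1 day (0%, lowest adjusted p = 0.529). At an unadjusted p under 0.05 there were 735 differences against 6 h (3.63%) and 1137 against 1 day (5.62%). Ch25h was the one probe set called at 1 day (0.00494%), with a log2 change of 0.84 (SE 0.12) there and 0.24 (SE 0.11) at 6 h. Ptgs2 had values of 0.52 (SE 0.16), 0.80 (SE 0.17) and 0.96 in the same order of 6 h, 1 day, 4 days, and Osmr of 0.64 (SE 0.17), 0.97 (SE 0.18) and 0.71. Lcn2 had values of 1.29 (SE 0.58), 1.80 (SE 0.62) and 1.96. The difference between 4 days and 1 day was 0.11 (SE 0.17) for Ch25h, 0.16 (SE 0.25) for Ptgs2, -0.26 (SE 0.26) for Osmr and 0.16 (SE 0.88) for Lcn2, none past the threshold.

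Microglial genes had other values. Ly86 had a log2 change of 0.01 (SE 0.08) at 6 h and -0.01 (SE 0.09) at 1 day, Itgam of 0.05 (SE 0.05) and -0.02 (SE 0.05), and Wfdc17 of 0.27 (SE 0.09) and -0.02 (SE 0.10). The microglia list had 1 of 25 members higher and 0 lower at 6 h, where 2.34% and 1.64% of all genes were, and 0 higher and 1 lower at 1 day, where 2.39% and 3.09% were. Its median of 0.14 at 4 days compares with 0.01 at 6 h and -0.02 at 1 day. The difference between 4 days and 1 day was 0.67 (SE 0.14) for Wfdc17, 0.51 (SE 0.12) for Ly86 and 0.34 (SE 0.08) for Itgam, with adjusted p from 0.529 to 0.560 in limma, so it was not shown over all probe sets. These genes were named for their 4-day values, which are part of this difference, so the naming itself favours a large one. With arrays weighted by quality, 22 probe sets passed the comparison of 4 days with 1 day, Itgam and Id2 among them. The endothelial gene Tek had the smallest unadjusted p of these differences (0.41, SE 0.08, adjusted p = 0.529). Its log2 change was -0.17 (SE 0.06) at 1 day and 0.24 at 4 days.

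Glucocorticoid-induced genes had a median of 0.05 at 6 h; the medians of the later times were 0.16 (1 day) and 0.13 (4 days). At 6 h, 5 of the 29 were higher and 1 lower at an unadjusted p under 0.05, and at 1 day 8 were higher and 0 lower. Members differed: Tsc22d3 was at 0.15 (SE 0.07) and Fkbp5 at 0.19 (SE 0.12) at 6 h, while the members largest at 4 days were below 0 there. Sgk1 had values of -0.38 (SE 0.20), 0.54 (SE 0.22) and 0.84, Ddit4 of -0.18 (SE 0.08), 0.26 (SE 0.09) and 0.45, and Nfkbia of -0.15 (SE 0.09), 0.36 (SE 0.09) and 0.40. From 1 day to 4 days the celastrol mean of Sgk1 went from 10.28 to 10.21 and its DMSO mean from 9.74 to 9.37. For Ddit4 the celastrol mean went from 9.65 to 9.60 and the DMSO mean from 9.39 to 9.14. For Nfkbia the celastrol mean went from 9.59 to 9.64 and the DMSO mean from 9.23 to 9.24. The differences of Sgk1, Ddit4 and Nfkbia between 4 days and 6 h were 1.22 (SE 0.29), 0.63 (SE 0.12) and 0.55 (SE 0.13), with adjusted p from 0.573 to 0.754. Id2 was at 0.01 (SE 0.05) at 6 h and 0.02 (SE 0.05) at 1 day, and Ndnf at 0.03 (SE 0.07) and -0.23 (SE 0.08).

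**Figure D5:**
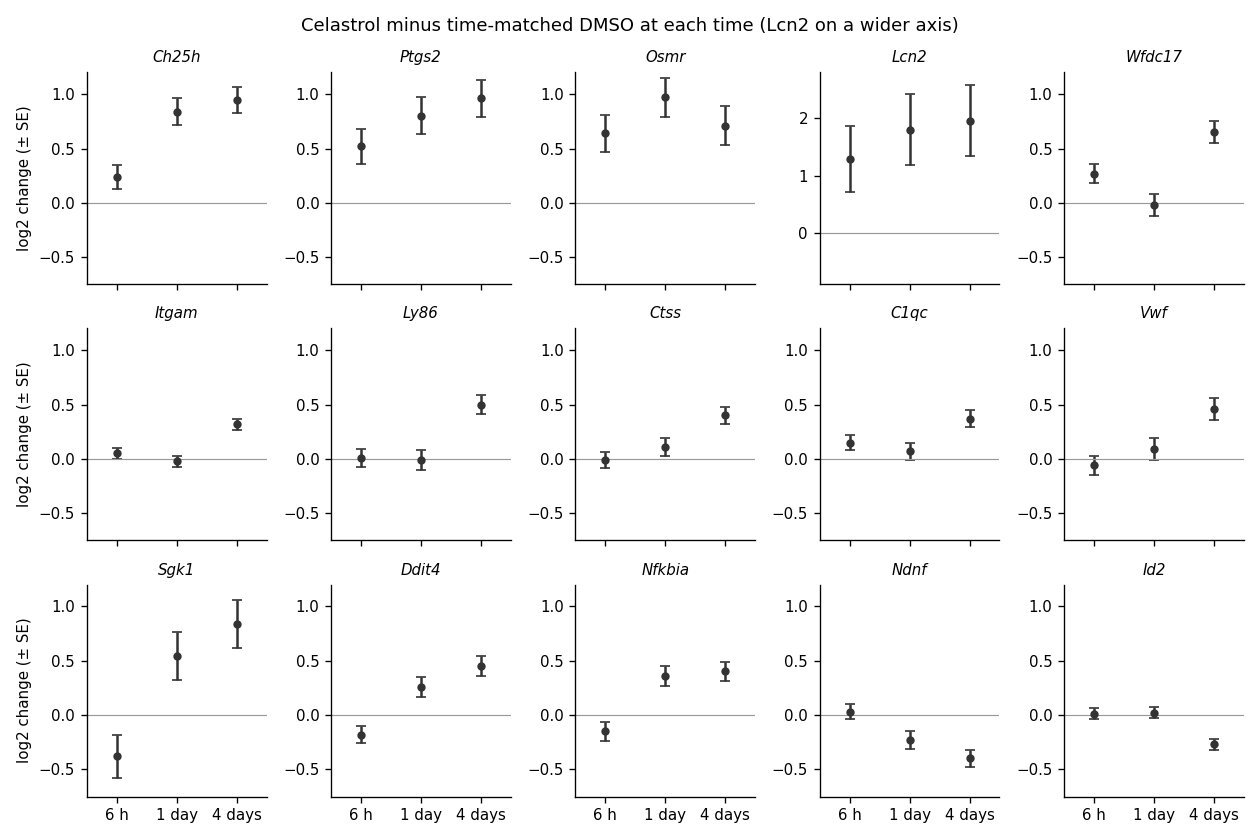
Log2 change of celastrol against the DMSO arrays of the same time (y axis, with the limma SE) at 6 h, 1 day and 4 days for 15 genes; Lcn2 has a wider axis. Ch25h, Ptgs2, Osmr and Lcn2 stand above 0 throughout, while Itgam and Ly86 lie within 0.05 of 0 at 6 h and 1 day and at 0.32 and 0.50 at 4 days. Itgam and Ly86 were named for their 4-day values.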

How the data were processed

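RNA of whole hypothalamus was labelled and hybridised to Affymetrix whole-transcript arrays, 1 per sample. The deposited values are log2 probe set signals that the authors made with robust multi-array averaging (RMA), per the submitters' processing notes, which give no version. Background correction and normalization were therefore done before deposit, and no detection call was used here. The table had 23492 probe sets on 22 arrays and 0 columns of other series. Probe sets with 1 symbol in GEO's platform annotation were kept (20228), and 20182 matched a RefSeq gene ID. Probe sets with several symbols (1399) or none (1865) were not named.

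The difference between celastrol and DMSO at 4 days was tested by the moderated linear model of limma (version 3.58.1, R version 4.3.3; functions lmFit and eBayes) fitted to all 6 groups, which share 1 estimate of the spread, with Benjamini-Hochberg adjustment over the 20228 probe sets and a threshold of 0.05. The p-values and SE come from this fit unless an exact permutation test (3 against 4 arrays, 35 arrangements, two-sided) is named. Nothing says beyond "biological" how replicates were taken, so p-values measure the spread between these samples. Arrays, with 3 and 4 a group, set the precision (median SE 0.07). Where several probe sets stand for a gene, lists use the one with the highest mean. The fit was tested on simulated data.

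The comparison and the gene lists were chosen with earlier results of these data known. Named genes were those that passed, up to 12 each way with the largest change among brighter separated probe sets (unadjusted p under 0.01), the members of each list with the smallest p, a few fixed genes, and the extreme differences between times. Of the 176 so tabulated, 44 were added after their values were seen, as were Aif1, Il1b, Tnf, Il6, Lamp1, Ctsd, Grn, Ptges, Ptgds and Gfap. Same-numbered arrays did not deviate together. Figures used Python 3.11.15 and matplotlib 3.10.9.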

Additional observations from a re-analysis of the deposited data

Results flagged for a closer look

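Of 213 gene and list values examined for a single DMSO array far from the rest of its group at 4 days, 5 stood apart by Dixon's criterion, fewer than the 1 in 20 that chance gives. Lcp1, an actin-bundling protein of leukocytes, read 8.26 in DMSO replicate 1 and 8.16 to 8.18 in the others. Pld4 read 8.65 in DMSO replicate 2 and 8.52 to 8.54 in the others. Chgb, a secretory granule protein, read 11.22 in DMSO replicate 1 and 11.15 to 11.16 in the others. Prl, the pituitary hormone prolactin, read 7.14 in DMSO replicate 3 and 6.21 to 6.32 in the others. The mean level of the immediate early genes was 8.40 in DMSO replicate 2 and 8.47 in the others. The celastrol group, with 3 arrays, could not be examined this way.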

How the results depend on the processing

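The number of genes called at 4 days was 2 in the fit reported. It was 0 with probe sets above the array median in at least 3 arrays, which leaves out Ch25h and Wfdc17, 1 with a mean above the median probe set, 1 after quantile normalization again, 6 with limma-trend, 9 with array weights and 0 with only the 7 arrays compared. With brighter probe sets and 1 per gene, chosen after seeing the data, it was 5 (Ly86, Ptgs2, Ctss, Ndnf and Id2). Leaving out 1 array gave 1 to 5. Replicate numbers correlated at -0.15, 0.02 and -0.09 and do not pair the samples; the replicate block gave 1 call, and 0 with only the 7 arrays. Differences between times stayed at 0 except 22 for 4 days minus 1 day with array weights. Signs turned for 9 genes that were near 0 or rested on 1 array. Socs3 was at -0.01 with the mean of its probe sets, -0.00 after quantile normalization again, and -0.04 to 0.07 with 1 array left out. With the replicate block on 7 arrays, Tsc22d3 was at -0.01 and Sall1 at 0.00. With 1 array left out the ranges were -0.08 to 1.95 for Prl, -0.00 to 1.61 for Gh, -0.01 to 0.10 for Tsc22d3, -0.10 to 0.01 for Sall1, -0.12 to 0.03 for Akr1c18, -0.05 to 0.16 for Npy, -0.05 to 0.01 for P2ry12 and -0.10 to 0.17 for Pomc. For Prl, Gh, Akr1c18 and Pomc the sign turned without celastrol replicate 2. The sign of Pomc also turned without DMSO replicate 2. The cause was not tested. Over 176 probe sets, 3429 of 3476 values kept their direction and side of the threshold. Only 2 of these were called in the fit reported, so for most of them keeping that side was likely from the start. Ch25h passed in 16 of 18 alternative settings and Wfdc17 in 10 of 18.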
